A study of Homo sapiens with 8 samples.

Results

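K562, an erythroleukaemia cell line that carries the BCR-ABL1 fusion and keeps early erythroid features, was compared after induction of an SF3B1-K700E transgene and after induction of a wild-type SF3B1 transgene. The comparison used the 4 libraries, of 8 in the series, whose labels give a transgene and doxycycline at 1 ug/ml for 48 h: replicates 1 and 2 of K700E_induced and replicates 1 and 2 of WT_induced. The other 4 libraries are the same lines without doxycycline (K700E_uninduced and WT_uninduced, 2 each). They entered the fits for the spread and are given beside the results. All libraries were total RNA depleted of ribosomal RNA. Neither how the transgene lines were derived, whether each is a single clone, nor whether replicates came from separate cultures is given in the sources used here. The p-values therefore measure only the spread between these libraries, which may be technical.

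SF3B1 is the large subunit of the SF3B complex of the U2 small nuclear ribonucleoprotein, which holds the branch point adenosine of an intron in place before the acceptor (3′ splice site) is chosen. The K700E substitution recurs in myelodysplastic syndromes with ring sideroblasts. It is known for the use of cryptic acceptors a short way upstream of the normal one, which adds intron bases to the messenger RNA and can bring about its decay.

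The levels below are FPKM (fragments per transcript length and library size), scaled between libraries by factors of 0.989 to 1.04. In every list of values the 2 K700E_induced libraries come first and the 2 WT_induced libraries second, replicate 1 before replicate 2. Of 23555 genes in the files, 11364 had a mean of 1 FPKM or more and were tested with limma. Coverage per FPKM, the only trace of depth used here, was 4.47 and 3.95 against 4.79 and 3.30. Cufflinks assembled 2511 and 3223 spliced transcripts in the K700E_induced libraries and 3364 and 2920 in the WT_induced libraries, beside the 43497 reference transcripts listed in each. Across the 8767 genes above 0 in all 8 libraries, Pearson's r was 0.852 between the K700E_induced libraries, 0.833 between the WT_induced libraries, and 0.82 to 0.857 between libraries of the 2 groups, so replicates were no more alike than libraries of different groups. These r values are across genes, which are not independent replicates.

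Total SF3B1 RNA did not differ between the groups beyond their spread. The gene (chromosome 2, 198256698 to 198299771 on hg19) was at 28.7 and 39.0 FPKM with K700E and at 36.6 and 26.9 FPKM with wild type, and the ranges overlap. The log2 difference was 0.09 (SE 0.37; adjusted p from limma, 1). This difference was -0.13 without K700E_induced replicate 2 and likewise -0.13 without WT_induced replicate 2. Transgene and endogenous reads are summed here and the 2 alleles are not separated, so expression of K700E was not checked by these values.

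K562 identity was checked on 12 defining genes, all of which were above the threshold of 1 FPKM. Their summed level was 7095 and 10281 FPKM with K700E against 6398 and 6453 FPKM with wild type. GATA1, the master erythroid transcription factor, was at 299 and 291 against 249 and 209 FPKM. Of 12 myeloid markers 7 were at 0 in all 4 libraries, among them CD14, MPO and ELANE. Of 10 megakaryocyte markers 4 were at 0, including PF4 and PPBP, and of 10 lymphoid markers 5, including MS4A1 and CD2. Of 11 stromal and epithelial markers 4 were at 0, including COL1A2 and CDH1. Their summed levels with K700E and wild type were 27.2 and 30.2 against 53.7 and 75.7 FPKM for the myeloid, 224 and 271 against 351 and 41.3 FPKM for the megakaryocyte, 10.0 and 10.3 against 23 and 15.3 FPKM for the lymphoid, and 754 and 666 against 758 and 545 FPKM for the stromal and epithelial list. The last sum lies mostly in the keratin genes KRT8 and KRT18. The megakaryocyte sum lies mostly in GP1BB, at 212 and 259 against 332 and 0 FPKM. Some markers of other lineages were above 0 in all 4 libraries. CD33 was at 16.5 and 18 against 18.3 and 22.5 FPKM, and ITGA2B at 9.88 and 11.4 against 18.2 and 39 FPKM. CD3D was at 3.82 and 10.3 against 21.4 and 7.23 FPKM. The part of these differences in the gene results was not tested.

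Acceptor use is described first, since it is what the K700E substitution is known for. Cufflinks introns that join a reference donor to an acceptor absent from the reference were counted by the distance of that acceptor from the nearest reference acceptor of the same donor. The window of 10 to 30 nt upstream held 23 and 27 such sites in the K700E_induced libraries and 18 and 14 in the WT_induced libraries, means of 25 ± 2.83 and 16 ± 2.83 (SD, n = 2). The groups do not overlap. The uninduced libraries held 9 and 14 (K700E line) and 14 and 12 (WT line). With 2 libraries a group an exact permutation test cannot go below a two-sided p of 0.333, so no test was made.

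The same order held relative to the number of spliced transcripts assembled. There were 9.16 and 8.38 sites per 1000 assembled spliced transcripts with K700E and 5.35 and 4.79 with wild type. As a share of all unannotated acceptors of reference donors, the window took 11.2% and 9.41% with K700E, 6.38% and 6.36% with wild type, and 2.94% to 6.94% in the uninduced libraries. In counts of acceptors the groups overlapped at all other distances. Those 1 to 9 nt upstream numbered 11 and 13 against 13 and 11, those 31 to 100 nt upstream 8 and 13 against 12 and 10, and those 10 to 30 nt downstream 13 and 14 against 16 and 12. Per 1000 assembled spliced transcripts, however, acceptors 1 to 9 nt upstream (4.38 and 4.03 against 3.86 and 3.77) and 31 to 100 nt downstream (11.2 and 11.2 against 9.22 and 9.25) also lay apart, by less. As shares of all unannotated acceptors, those 31 to 100 nt downstream were higher with K700E (13.7% and 12.5% against 11% and 12.3%). Those 1 to 9 nt downstream were lower (15.6% and 15% against 18.4% and 17.3%). A narrower window of 15 to 25 nt upstream, chosen after seeing the data, held 12 and 22 sites against 13 and 9, which overlap. Unannotated donors (5′ splice sites) 10 to 30 nt upstream numbered 5 and 10 against 13 and 11, which is fewer with K700E, and 10 to 30 nt downstream 7 and 6 against 14 and 7.

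**Figure D1:**
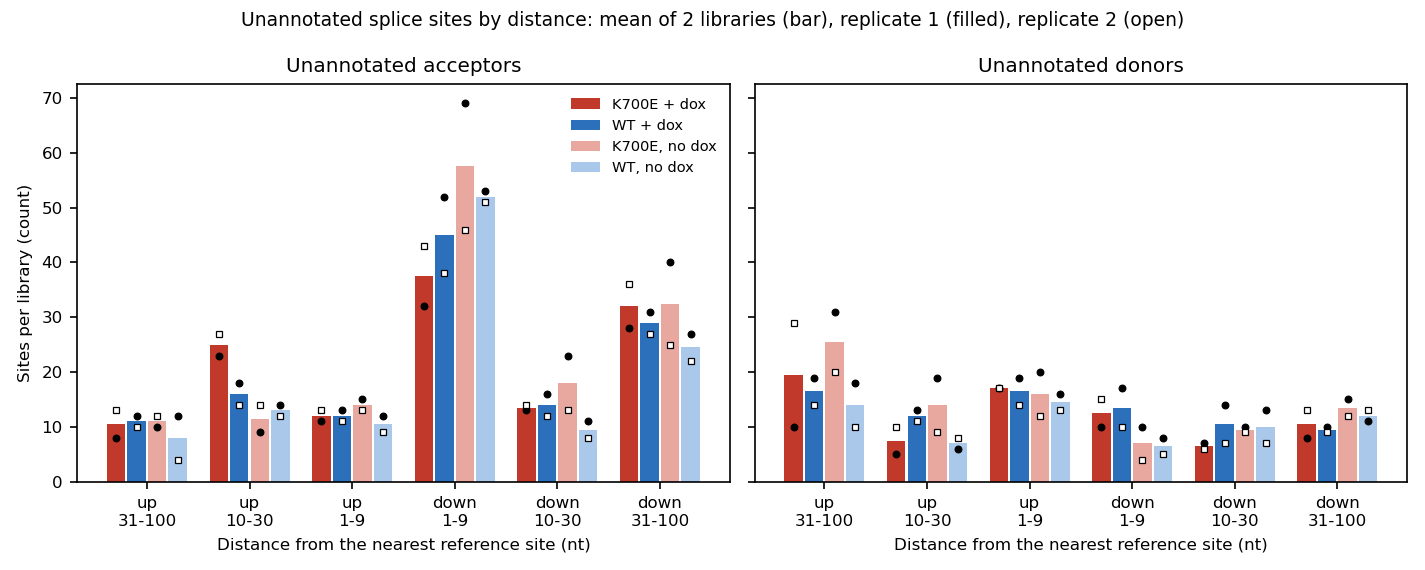
Number of unannotated acceptors (left) and donors (right) per library, by distance in nt from the nearest reference site, as the mean of 2 libraries (bars) with replicate 1 (filled circles) and replicate 2 (open squares). The K700E_induced libraries hold 23 and 27 acceptors 10 to 30 nt upstream, above all 6 other libraries (9 to 18); dox, doxycycline.

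The sites themselves were mostly different ones in each library. Of 109 distinct acceptors in the window, 49 were found with K700E and 31 with wild type, and 2 (MMS19 and ZMIZ1) with both. Of the 23 sites of K700E_induced replicate 1, 20 were found in no other library, and of the 27 of replicate 2, 17. Only 1 site, in YIPF2, was found in both K700E_induced libraries, and 1, in TOP2B, in both WT_induced libraries. The median distance was 20 nt in both groups, 32 of 49 sites with K700E lay 15 to 22 nt upstream against 16 of 31 with wild type, and the inserted length was a multiple of 3 for 21 of 49 against 18 of 31.

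The sites carried a sizeable part of their acceptor pair where they were listed. Their median FPKM was 13.7 and 11.7 with K700E and 17.5 and 29.7 with wild type. At the median site the upstream acceptor took 60.1% and 63.2% of the FPKM of the acceptor pair with K700E, and 48.4% and 82.6% with wild type, and these ranges overlap. The reference acceptor was at 0 for 8 of 23 and 10 of 27 sites with K700E, and for 2 of 18 and 6 of 14 with wild type. The numbers of sites lay apart between the groups, and the median shares did not.

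For 36 of the 109 sites GENCODE 29 holds a transcript with both introns, from which the bases between the acceptors were read. They are shown to compare the stretch before the upstream AG between the groups; capitals mark that AG, the last 2 bases of the intron when the upstream acceptor is used. Coordinates are on GRCh38, and strand is given after them. The first 5 were listed with K700E and in no other group, EI24 with wild type in the same way, and TOP2B with wild type and in WT_uninduced replicate 2.
YIPF2, chr19:10923175-10923191, minus: acaattctttctttcAG
CRTC2, chr1:153952636-153952650, minus: tctttctctttcaAG
ZNF274, chr19:58185697-58185711, plus: aatctggatttttAG
THOC1, chr18:224180-224200, minus: tgtatgttttgttcacgacAG
MAP2K7, chr19:7911415-7911435, plus: ccctgcccgtctccctcccAG
TOP2B, chr3:25645456-25645470, minus: actctttttgatcAG
EI24, chr11:125575251-125575262, plus: ccttttctatAG
Before the AG, 73.5% of the bases were pyrimidines over the 16 sites with K700E that have a sequence (287 bases), and 81.8% over the 13 with wild type (231 bases). The figure was 78.0% over the 18 sites of the uninduced libraries. These are descriptions of the matched sites, which GENCODE already annotates.

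In the coactivator gene CRTC2 the upstream site was at 21.9 FPKM in K700E_induced replicate 2 and at 0 in the other 7 libraries. MAP2K7, a kinase of the JNK pathway, had it at 30.7 FPKM in the same library alone. THOC1, a subunit of the THO complex for messenger RNA export, had it at 9.19 FPKM there and at 0 elsewhere. Among the sites of K700E_induced replicate 1, the one in the chaperone gene CANX, 20 nt upstream, was at 79.4 FPKM, and that in the kinase gene MTOR, 27 nt upstream, at 23 FPKM, both at 0 in the other 7 libraries. These 5 genes were chosen after their values were seen.

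YIPF2, a Golgi membrane protein gene of the YIP1 family, showed the clearest separation of the groups at a single acceptor. In its reference transcript of 10 exons, the last intron (97 nt) ends before exon 10, whose first base is at 11033850 on chromosome 19 of hg19 (minus strand). The unannotated acceptor makes exon 10 begin 17 nt earlier, at 11033867, and shortens the intron to 80 nt. The 17 bases are not a multiple of 3. Introns to the upstream acceptor were at 51.4 and 57.1 FPKM with K700E and at 0 in the other 6 libraries. Introns to the reference acceptor were at 0 and 0 with K700E, at 52.8 and 29.2 with wild type, and at 30.2 to 54.3 in the 4 uninduced libraries. The 2 K700E_induced libraries therefore lie wholly on one acceptor and all others wholly on the other. The limma adjusted p was 0.16 over all acceptor pairs. It was 0.024 when pairs 10 to 30 nt apart were fitted alone, and 0.017 with no filter on level. The total level of the gene, 51.4 and 57.1 against 52.8 and 29.2 FPKM, overlapped between the groups.

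Across the transcriptome, 1729 pairs of acceptors 3 to 100 nt apart that share a donor were tested, as the log2 ratio of FPKM at the upstream to the downstream site. None passed the adjusted threshold of 0.05 (percent called 0), and 82 had an unadjusted p under 0.05, which is 4.74%. The upstream ratio was higher with K700E in 880 pairs, 50.9%. The upstream share was higher without overlap in 74 pairs (4.28%) and lower in 70 (4.05%). Of the 414 pairs 10 to 30 nt apart, 18 were higher without overlap (4.35%) and 13 lower (3.14%), close to the shares over all pairs. The mean upstream share over these 414 pairs was 43.0% and 43.2% with K700E and 41.9% and 39.9% with wild type. Over the 120 of them whose upstream acceptor is unannotated it was 16.6% and 17.0% with K700E, 11.4% and 8.75% with wild type, and 6.24% to 10.5% in the uninduced libraries. A pair entered only if each acceptor was above 0 in some library, and most unannotated sites were listed in a single library. These shares therefore largely restate the numbers of sites given above and are no separate support. Only 1 of these 120 (0.833%) was higher without overlap, the pair in YIPF2, and 1 lower.

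Beside YIPF2, 4 of the named pairs had an upstream acceptor listed in both K700E_induced libraries and in no other, all of them reference acceptors. NET1, which encodes a guanine nucleotide exchange factor, used an acceptor 33 nt upstream at 96.6 and 29.7 FPKM, a share of the pair of 86.1% and 40.3%. The limma adjusted p was 0.65. PIK3R2, a regulatory subunit of PI3-kinase, used one 49 nt upstream at 27.9 and 23.1 FPKM (adjusted p = 0.65). PKMYT1, a kinase that inhibits CDK1, used one 24 nt upstream at 19.6 and 34.9 FPKM, a share of 19.4% and 31% (adjusted p = 0.79). In these 3 genes the downstream acceptor was above 0 in all 8 libraries. TMEM91 had its upstream acceptor, 23 nt away, at 43.1 and 11.1 FPKM with K700E and at 0 in the other libraries, but neither acceptor was above 0 in 3 of the uninduced ones (adjusted p = 0.77).

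Some pairs moved the other way or differed by a single codon. SHMT2, the mitochondrial serine hydroxymethyltransferase gene, had the acceptor 30 nt downstream at 21.6 and 28.5 FPKM with K700E and at 0 in the other 6 libraries, so its upstream share was 82.8% and 76.6% against 100% (adjusted p = 0.73). In B4GALT3, a galactosyltransferase gene, the acceptor 21 nt upstream held 100% and 100% with K700E and 27.7% and 0% with wild type, but also 79.1% in K700E_uninduced replicate 1 (adjusted p = 0.65). TMEM219 and SHC1 each differed at acceptors 3 nt apart (adjusted p = 0.49 and 0.65). The upstream one held 100% against 0% for TMEM219 and 0% against 100% for SHC1. Without doxycycline the order of the lines was the reverse for SHC1. Its upstream share there was 100% and 70.8% in the K700E line and 0% and 30.4% in the WT line. RPL11, a ribosomal protein gene, had the downstream of a pair 3 nt apart at 0 with K700E and at 304 and 220 FPKM with wild type, and at 0 also in 3 of the 4 uninduced libraries (adjusted p = 0.64). In AP3D1, an adaptor complex subunit gene, the groups were wholly on opposite acceptors 36 nt apart (adjusted p = 0.64), while the share of the upstream one in the uninduced libraries ran from 0% to 100%. ATP2A3, NPTN, SRRT and BABAM2 complete the pairs named by smallest p, with adjusted p between 0.65 and 0.77.

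The bases between the acceptors of pairs in the window, read in the same way, show an annotated pair that was used more with K700E (PKMYT1), one used more at its downstream acceptor (SHMT2), one that also varied without doxycycline (B4GALT3), and TMEM14C, a known target described next.
PKMYT1, chr16:2979913-2979936, minus: cccgtccactgctctgttcgccAG
SHMT2, chr12:57232453-57232482, plus: cccaaaactggcctcattgactacaaccAG
B4GALT3, chr1:161176075-161176095, minus: aattcccctctccctccctAG
TMEM14C, chr6:10724556-10724569, plus: cttgttttctgcAG

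**Figure D2:**
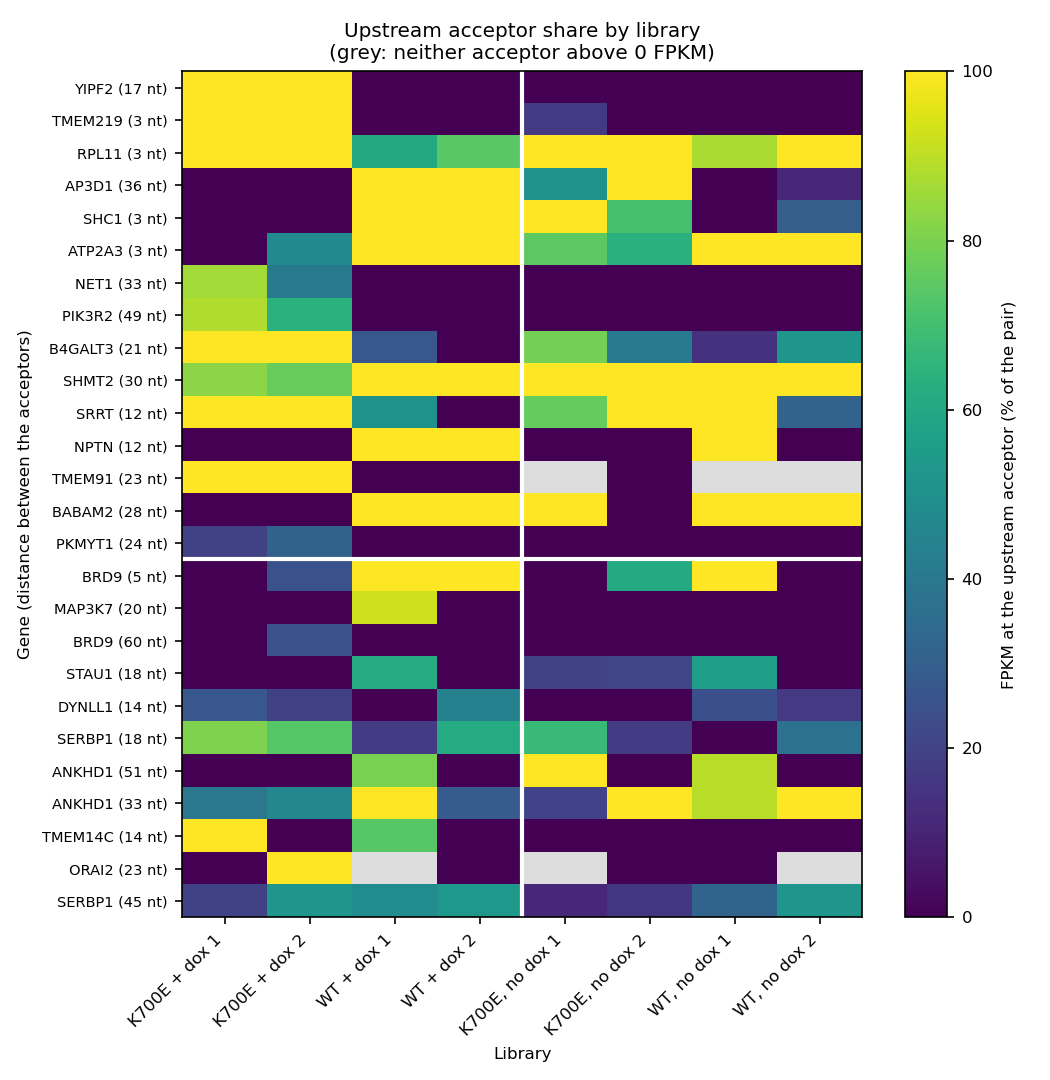
Share of FPKM at the upstream acceptor of each pair (colour, 0 to 100%; grey where neither acceptor is above 0) in each of the 8 libraries (columns), for the pairs with the smallest p (above the white line) and pairs of the other listed SF3B1-mutant targets (below it). YIPF2 is at 100% in both K700E_induced libraries and at 0% in all others, while TMEM14C and MAP3K7 differ between libraries of one group.

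YIPF2, described above, is on the list of known splicing targets of mutant SF3B1, and its pair had the smallest p of all. That list was chosen with earlier results of these data known, so its place there is no separate support. The pairs of the other listed targets are given next, and none of them was called. In TMEM14C, a mitochondrial protein gene needed for heme synthesis, the acceptor 14 nt upstream was at 109 and 0 FPKM with K700E and at 22.6 and 0 with wild type, so a library of each group used it (adjusted p = 0.91). In MAP3K7, which encodes the kinase TAK1, the unannotated acceptor 20 nt upstream was listed only in WT_induced replicate 1, at 25.1 FPKM (adjusted p = 0.85). DYNLL1, a dynein light chain gene, had 53.0 and 24.6 against 0 and 97.8 FPKM at the acceptor 14 nt upstream. SERBP1, an RNA-binding protein gene, had 80.8% and 73.7% of the pair at the acceptor 18 nt upstream with K700E and 17.4% and 61.4% with wild type. The groups do not overlap there, yet the adjusted p was 0.88 and K700E_uninduced replicate 1 was at 67.7%. STAU1, an RNA-binding protein gene, had its acceptor 18 nt upstream at 0 and 0 with K700E and at 40.6 and 0 with wild type. BRD9 had the smallest p of these other targets, at acceptors 5 nt apart (adjusted p = 0.85). The upstream one held 0% and 25.1% with K700E against 100% and 100% with wild type. The groups lie apart there too, toward the downstream acceptor, while the uninduced shares ran from 0% to 100%. Apart from YIPF2, all listed targets with a tested pair had adjusted p between 0.85 and 1, ORAI2, BRD9 and ANKHD1 among them.

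Donor use gave less. Of 1135 donor pairs that share an acceptor none was called (percent called 0), and 49 had an unadjusted p under 0.05 (4.32%). The upstream share was higher without overlap in 43 pairs (3.79%) and lower in 27 (2.38%). The smallest p was in RRBP1, a ribosome-binding protein of the endoplasmic reticulum, whose downstream donor, 9 nt away, was at 28.0 and 14.5 FPKM with K700E and at 0 in the other 6 libraries. Its adjusted p was 0.94.

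Transcript shares were tested for 24611 transcripts of 7671 genes, and none passed (percent called 0), with 991 at an unadjusted p under 0.05 (4.03%). Shares were higher without overlap for 1008 transcripts (4.1%) and lower for 933 (3.79%). Most shares were all or none: 80.8% of the values in the 4 libraries were 0% or 100%. For 6723 genes with several transcripts, the leading transcript was the same in 54.1% of genes between the K700E_induced libraries, in 52.3% between the WT_induced libraries, and in 52.5% to 53.8% between libraries of the 2 groups. In 2174 genes the replicates shared a leading transcript in both groups, and 154 of these (7.08%) had a different one with K700E than with wild type. The uninduced lines had 134 of 2327 (5.76%).

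DLST, the E2 subunit of the 2-oxoglutarate dehydrogenase complex, was listed with K700E as a transcript that skips an exon. NR_045209 took 100% of the gene in both K700E_induced libraries and 0% in the other 6, with gene levels of 23.7 and 14.1 against 22.6 and 30.3 FPKM. It lacks exon 3 of the 15 exons of NM_001933, which is 49 nt long and lies at 75352289 to 75352337 on chromosome 14. The adjusted p was 0.71. RHOC, a small GTPase gene, had NM_001042679 at 100% with K700E and 0% with wild type, but at 0% and 53.2% in K700E_uninduced and 58.1% and 15.7% in WT_uninduced. In GCC2, a Golgi coiled-coil protein gene, NR_028063 was at 100% with K700E and 0% with wild type, and at 0%, 0%, 0% and 80.8% without doxycycline (adjusted p = 0.87). An assembled MAP3K7 transcript with 14 introns took 60.3% and 79.8% with K700E and 0% elsewhere (adjusted p = 0.87). HSPA1B was listed as a reference transcript (adjusted p = 0.71) and as an assembled one joined to it by overlap, neither with an intron. Its shares moved between these entries, so they show no change of splicing. The gene also lies beside the near-identical HSPA1A, so its assignment is uncertain. The other transcripts named by smallest p belong to YIPF2, TMEM219 and SHC1, described above, and to C20orf96.

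At the level of whole genes 3 of 11364 passed the threshold, a percent called of 0.0264, with 1 higher (0.0088%) and 2 lower (0.0176%). MIR4461, a microRNA precursor of 74 nt on chromosome 5, was at 62042 and 65146 FPKM with K700E and at 0 in the other 6 libraries (adjusted p = 8.1e-06). VTRNA1-3, a vault RNA of 88 nt on the same chromosome, was at 0 with K700E and at 567031 and 31596 FPKM with wild type, and at 0 in the uninduced libraries (adjusted p = 0.0014). Without K700E_induced replicate 1 its adjusted p was 0.061. FPKM of transcripts shorter than a usual fragment can be strongly inflated by the length correction, so these levels are not comparable with those of messenger RNAs.

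ACAT2, the cytosolic acetoacetyl-CoA thiolase of cholesterol synthesis, was listed at 0 in both K700E_induced libraries and at 45.3 and 22.1 FPKM with wild type (adjusted p = 0.041). It was at 30.4 and 27.3 in K700E_uninduced and 41.7 and 18.2 in WT_uninduced, so the K700E_induced libraries lie below all others. The gene (chromosome 6, 160182989 to 160200087) overlaps the end of TCP1 on the other strand (160199530 to 160210735). TCP1, a chaperonin subunit gene, was at 155 and 121 against 86.1 and 104 FPKM. The counting is not stated to use strand, so reads of the overlap cannot be told apart. The ACAT2 call was lost with the compared groups alone (adjusted p = 0.43), a pseudocount of 1 (0.083), the replicate block (0.067), no filter on level (0.069), reference transcripts only (0.071), no trend (0.051), and without any single library (0.091 to 0.40). The log2 difference itself was -6.01 in most of these, and -5.03 with the pseudocount of 1.

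The difference between induced and uninduced lines passed for MIR4461 and VTRNA1-3 (0.0176% of genes), and no gene was called between the uninduced lines (0%). The 3 calls stand beside 595 genes at an unadjusted p under 0.05 (5.24%). Groups lay apart in 1848 genes that were higher (16.3%) and 1885 that were lower (16.6%). The number called was 11 without WT_induced replicate 1, 10 without K700E_induced replicate 2 and 6 without WT_induced replicate 2. The genes below did not pass the test and are given as values.

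Among genes expressed in all 4 libraries, the 10 with the smallest p and higher levels with K700E include 2 subunits of larger machines. NDUFS6, a subunit of respiratory complex I, was at 109 and 136 against 33.3 and 30.2 FPKM, a log2 difference of 1.92 (SE 0.39, adjusted p = 0.39). Both K700E libraries lie well above both wild-type ones, yet the uninduced libraries reached 63.5 to 136 FPKM, so WT_induced is the low group. LSM7, a subunit of the LSm rings that bind U6 snRNA and decaying messenger RNA, was at 178 and 174 against 80.9 and 63.1 FPKM (log2 1.30, SE 0.27, adjusted p = 0.44), with the uninduced libraries at 81.4 to 126. Its reference transcripts alone were at 86.5 and 174 against 43.2 and 63.1 FPKM. H3C7, a histone H3 gene with near-identical copies, was at 109 and 93.1 against 6.47 and 0.183 FPKM (log2 5.54, SE 1.11, adjusted p = 0.39), and at 16.3 to 115 without doxycycline.

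The other 7 owed most of their level with K700E to assembled transcripts. MMAB, an enzyme of vitamin B12 activation, was at 70.5 and 118 against 5.72 and 2.28 FPKM in all, but at 6.66 and 6.84 against 5.72 and 2.28 FPKM in its reference transcripts. PGGHG, a collagen glucosidase gene, was at 91.7 and 86.3 against 11.7 and 25 FPKM, and at 16 and 0 against 11.7 and 0 in its reference transcripts. FHIP1B, a cargo adaptor gene for dynein, was at 34.9 and 35.3 against 2.81 and 3.93 FPKM, and kept its order in reference transcripts at 7.45 and 10.7. LSM14B, NIPA1 and LOC728323 were higher in all with log2 differences of 2.04, 3.10 and 3.30, and lower in reference transcripts alone, at -1.32, -0.51 and -1.68. PDCD6P1, a pseudogene of PDCD6 whose reads can be split with its parent, had 4.48.

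Of the 10 lower genes, VAPA, which tethers the endoplasmic reticulum to other organelles, had the smallest p, at 33.5 and 35.2 against 224 and 158 FPKM (log2 -2.44, SE 0.31, adjusted p = 0.12). Its reference transcripts alone were level, at 33.5 and 35.2 against 38.6 and 29.9 FPKM. ACSM3, a mitochondrial acyl-CoA synthetase gene, was at 93.3 and 56.3 against 291 and 298 FPKM (log2 -2.01, SE 0.32, adjusted p = 0.26). Without doxycycline it was at 146 and 156 in the K700E line and 265 and 181 in the WT line, so the K700E line was the lower one there too. DLK1, a membrane ligand related to Notch ligands, was at 132 and 117 against 886 and 336 FPKM (log2 -2.13, SE 0.51, adjusted p = 0.64), and at 274 and 254 against 855 and 371 without doxycycline. CD53, a leukocyte tetraspanin, was at 7.88 and 2.43 against 43.1 and 25.4 FPKM, and at 16 and 13.3 against 44.2 and 37.8 without doxycycline; its reference transcripts alone were at 43.1 and 0 FPKM with wild type, so the groups overlap there. In these 3 genes the order of the lines was present without doxycycline, with log2 differences of -0.53, -1.09 and -1.46.

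DPY30, a subunit of histone H3 lysine methyltransferase complexes, was at 11.9 and 9.65 against 57.9 and 52.6 FPKM (log2 -2.31, SE 0.51, adjusted p = 0.49), but its reference transcripts alone were at 7.72 and 52.6 FPKM with wild type. NKIRAS2, a Ras-like inhibitor of NF-kB signalling, was at 15.9 and 13.5 against 45.4 and 53.4 FPKM (log2 -1.72, SE 0.44, adjusted p = 0.80). In both, the uninduced lines differed by only 0.25 and 0.23 on the log2 scale, and their levels lay between those of the induced groups. UFSP2, a protease for the ubiquitin-like UFM1, was at 0.0618 and 1.04 against 10.2 and 11.6 FPKM, with 4.65 to 15.3 in all uninduced libraries. CLN3, a lysosomal membrane protein gene, was at 8.38 and 2.83 against 35.3 and 66.2 FPKM, of which 24.4 and 7.66 FPKM were in reference transcripts. LCP2, an adaptor of immune receptor signalling, was at 4.19 and 1.3 against 19.9 and 28.0 FPKM. SLC7A5P1, a pseudogene of the amino acid transporter SLC7A5, was at 0.174 and 0.4 against 34.2 and 18.2 FPKM. CLN3 and SLC7A5P1 were lower in the K700E line without doxycycline too, by log2 differences of -1.35 and -3.23. The uninduced levels were 8.1 and 13.5 against 30.7 and 24.6 FPKM for CLN3, and 0.0383 and 1.27 against 4.07 and 17.8 FPKM for SLC7A5P1.

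**Figure D3:**
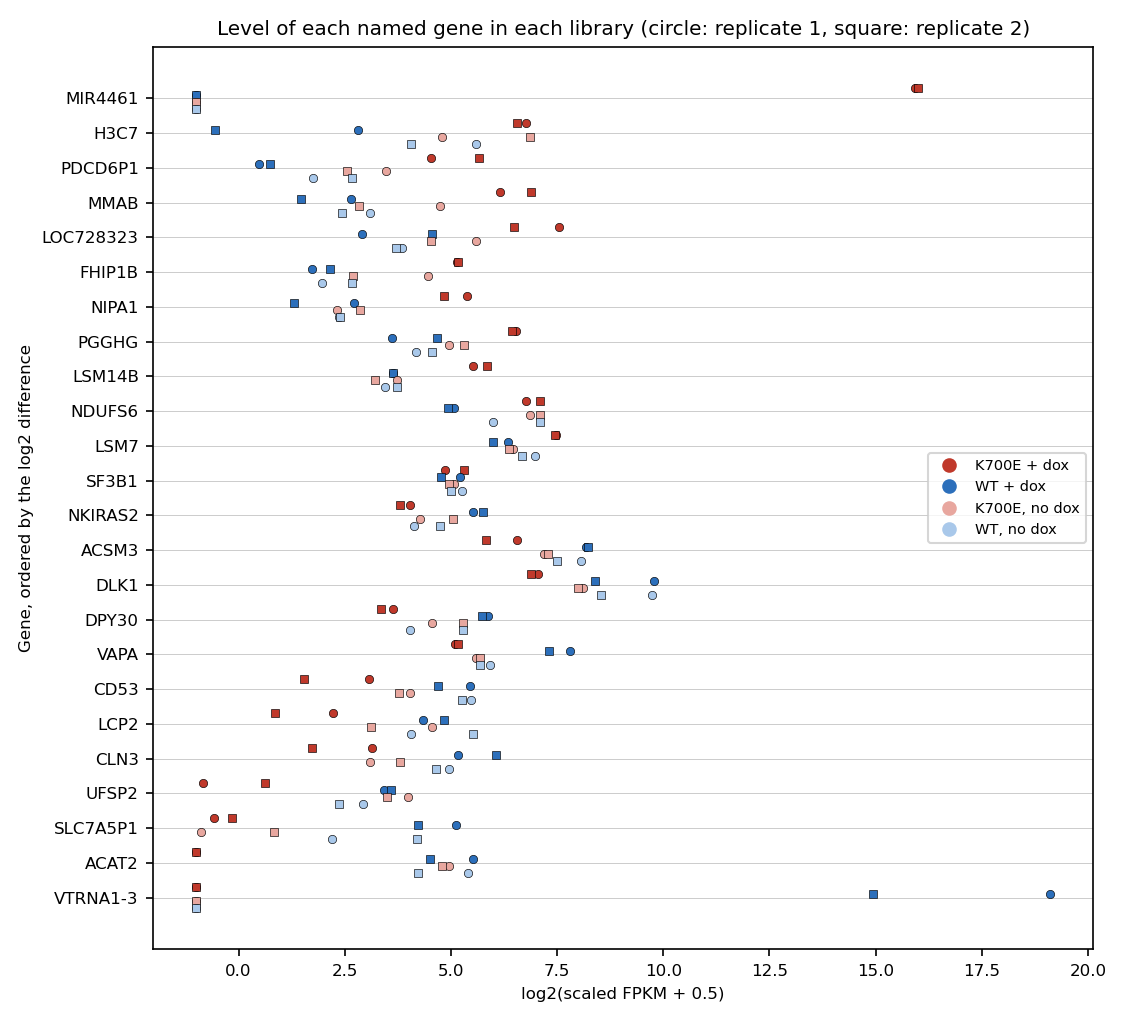
Level of SF3B1, of the 3 genes past the threshold and of the 20 named genes with the smallest p in each library, as log2(scaled FPKM + 0.5), one row per gene; circles are replicate 1, squares replicate 2. MIR4461 is above 0 with K700E and doxycycline alone, ACAT2 is at 0 there alone, and DLK1 and CD53 are lower in the K700E line with and without doxycycline.

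The gene lists were read by their counts beside those of all genes, of which 49.5% had a log2 difference above 0 and whose median was 0. Only 1 member of any list was called, ACAT2. Nuclear genes of the respiratory chain, the complexes that pass electrons to oxygen and make ATP, had 33 of 51 above 0 and a median log2 difference of 0.17. Of the 51, 16 were higher without overlap and 1 lower, against 16.3% and 16.6% of all genes. Beside NDUFS6, COX7C (cytochrome c oxidase) was at 428 and 355 against 221 and 114 FPKM (log2 1.29, SE 0.36, adjusted p = 0.80). NDUFS3 (complex I) was at 57.0 and 68.1 against 30.1 and 20.4 FPKM, with an uninduced difference of the same size (1.25 against 1.31). COX7C did not differ between the uninduced lines (-0.04), where it was at 315 to 480 FPKM, so WT_induced was its low group. The summed level of the list was 8547 and 7486 FPKM with K700E and 6442 and 6644 with wild type. It was 7199 to 8209 FPKM in the uninduced libraries, so WT_induced was the low group there too.

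Genes of the integrated stress response, the ATF4 programme of amino acid supply and redox defence, had 23 of 30 above 0, a median of 0.30, and 14 higher without overlap against 2 lower, where 16.3% and 16.6% of all genes were so. The median was 0.14 without WT_induced replicate 2. ASNS, asparagine synthetase, was at 275 and 211 against 117 and 156 FPKM (log2 0.83, SE 0.27, adjusted p = 0.90), and its uninduced difference was 0.75. CHAC1, a glutathione-degrading enzyme, was at 69.2 and 56.7 against 32.2 and 16.1 FPKM (log2 1.44, SE 0.56, adjusted p = 0.92). PPP1R15A, the phosphatase subunit that reverses the response, was at 109 and 112 against 77.8 and 57.4 FPKM, and at 91.0 to 127 without doxycycline. DDIT3 and NUPR1 were at 0 in all 4 libraries.

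Cholesterol synthesis, with ACAT2 at its first step, had 19 of 25 above 0 and a median of 0.34. Of the 25, 9 were higher without overlap and 3 lower, against 16.3% and 16.6% of all genes. Between the uninduced lines 16 of 25 were above 0. The median was 0.11 without WT_induced replicate 1 and 0.67 without WT_induced replicate 2. FDFT1, squalene synthase, was at 143 and 118 against 81.3 and 74.4 FPKM (log2 0.74, SE 0.26, adjusted p = 0.92), and the lines differed by 0.99 without doxycycline. STARD4, a sterol carrier, was at 57.5 and 11.3 against 0 and 9.55 FPKM, and lower with K700E (-0.77) in reference transcripts alone. The globin genes had 8 of 8 above 0 and a median of 0.56, which was 0.15 without K700E_induced replicate 2, 0.28 without WT_induced replicate 2, 0.97 without K700E_induced replicate 1 and 1.05 without WT_induced replicate 1. Only HBG2, a fetal globin whose reads can be shared with HBG1, lay apart, at 2782 and 3275 against 1532 and 2696 FPKM, and 7 of 8 were above 0 also between the uninduced lines.

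Of 14 erythroid transcription factors 8 were above 0 (median 0.06). TAL1, a master regulator, was at 46.9 and 41.6 against 33.3 and 24.4 FPKM (log2 0.62, SE 0.36, adjusted p = 0.95). LYL1 was at 68.4 and 105 against 138 and 142 FPKM (-0.72). KLF3 had a log2 difference of -0.94, and KLF1 one of 0.08 (SE 0.58), or -0.27 without K700E_induced replicate 2. GATA1 had 0.37 (SE 0.25). In reference transcripts alone TAL1 was at 0 and 41.6 against 0 and 24.4 FPKM, and GATA1 at 155 and 248 against 185 and 176 FPKM. LYL1 was at 68.4 and 105 against 96.7 and 109 FPKM there, and KLF3 at 22.9 and 28.4 against 21.1 and 33.8 FPKM. In reference transcripts the groups thus overlap for each of these genes. Heme synthesis had 11 of 18 above 0 (median 0.32). ALAS2, which starts it in erythroid cells, was at 43.3 and 63.6 against 17.6 and 27.0 FPKM (log2 1.25, SE 0.47, adjusted p = 0.92), ABCB10 at 38.9 and 49.3 against 20.9 and 21.7 FPKM, and PPOX at 22.4 and 27.6 against 53.4 and 58.7 FPKM. PPOX in reference transcripts alone was at 0 and 7.63 against 29.1 and 0 FPKM, so its groups overlap there. Iron handling and iron-sulfur clusters had 10 of 31 above 0 (median -0.27). SLC25A37, the mitochondrial iron importer, was at 120 and 189 against 50.1 and 59.7 FPKM (log2 1.46, SE 0.41, adjusted p = 0.80), with 105 to 229 FPKM in the uninduced libraries. The iron median was 0.02 without WT_induced replicate 2, and the medians of heme synthesis and of the erythroid factors fell to 0.03 without WT_induced replicate 1 and to -0.06 without K700E_induced replicate 2.

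U2 small nuclear ribonucleoprotein and branch point factors had 11 of 25 above 0 (median -0.09). Of these 25, 2 were higher and 9 lower without overlap, against 16.3% and 16.6% of all genes. SF3B2, a partner of SF3B1, was at 95.4 and 101 against 122 and 179 FPKM (log2 -0.58, SE 0.28, adjusted p = 0.95), while SF3B5 was at 136 and 149 against 134 and 35.7 FPKM and PUF60 at 83.6 and 88.4 against 67.1 and 45.8 FPKM. With reference transcripts alone the median was 0.16, of the opposite sign. SR proteins and hnRNPs had 16 of 27 above 0 (median 0.10). SRSF5 was at 271 and 127 against 73.7 and 55.8 FPKM (log2 1.52, SE 0.39, adjusted p = 0.80). Its reference transcripts alone were at 63.3 and 41.4 against 0 and 55.8 FPKM, so the groups overlap there. HNRNPA1 was at 792 and 754 against 651 and 644 FPKM. Nonsense-mediated decay factors had 10 of 17 above 0 (median 0.07), with SMG8 at 6.42 and 17.8 against 2.34 and 2.08 FPKM. Known splicing targets of mutant SF3B1 had 19 of 36 above 0 (median 0.04), 1 higher and 7 lower without overlap, where 16.3% and 16.6% of all genes were so. The share that was lower is thus near that of all genes, and the share that was higher is below it. The 7 include PPOX, given above, ZBTB24, at 5.71 and 5.96 against 11.2 and 19.8 FPKM, and CRNDE, at 0 and 15.2 against 21.0 and 18.5 FPKM. CRNDE in reference transcripts alone was at 0 and 15.2 against 5.83 and 18.5 FPKM, so its groups overlap there. MAP3K7 was at 14.6 and 6.57 against 27.0 and 10.2 FPKM (log2 -0.73, SE 0.63, adjusted p = 0.95). The medians of the decay factors and of the targets took both signs when single libraries were left out.

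Growth, stress and survival lists had medians between -0.32 and 0.21. G2/M genes had 18 of 28 above 0 (median 0.08), with CKS2, a cofactor of cyclin-dependent kinases, at 140 and 100 against 34.8 and 29.2 FPKM (log2 1.88, SE 0.55, adjusted p = 0.80). It was at 18.9 to 118 FPKM without doxycycline. Replication and S phase genes had 19 of 30 above 0 (median 0.17). FEN1, the flap endonuclease, was at 3.97 and 0 against 69.6 and 32.5 FPKM (adjusted p = 0.35), and at 33.7 to 41.1 FPKM in all uninduced libraries. Histone genes had 17 of 24 above 0 (median 0.21). That median was 0.077 and 0.054 without replicate 2 of K700E_induced and of WT_induced, and 0.45 and 0.33 without replicate 1 of each. Members above 0, with the median, numbered 7 of 8 for the TCP1 chaperonin (0.21), 11 of 21 for glycolysis (0.01), 9 of 20 for heat shock chaperones (-0.07), 5 of 14 for the BCL2 family (-0.32), 11 of 23 for the NF-kB and TAK1 pathway (-0.06) and 7 of 16 for interferon-inducible genes (-0.07). The medians of G2/M, S phase, chaperonin, glycolysis, heat shock, NF-kB and interferon genes took both signs when single libraries were left out. Within the interferon list the neighbours IFITM1 and IFITM2 differed in direction: IFITM1 was at 1603 and 1932 against 652 and 881 FPKM, and IFITM2, whose sequence is similar, at 4.92 and 26.6 against 60.3 and 254 FPKM. Without doxycycline IFITM2 was also lower in the K700E line, at 36.6 and 24.2 against 107 and 357 FPKM. The uninduced log2 difference was -2.69 for IFITM2 and -0.41 for IFITM1. IKBKG, the NF-kB essential modulator with a near-identical pseudogene, was at 24.9 and 19.4 FPKM against 0 and 0, and at 16.1, 0, 0 and 33.4 FPKM without doxycycline.

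Of the lineage markers, the 12 K562 genes had 9 above 0 (median 0.42), with BCR lower, at 67.8 and 46.6 against 101 and 107 FPKM. The 3 measured myeloid genes were all lower (median -1.75). LYZ, lysozyme, was at 7.42 and 6.44 against 24.7 and 24.0 FPKM (log2 -1.75, SE 0.50, adjusted p = 0.80), and CD68 at 3.23 and 5.65 against 10.7 and 28.6 FPKM. The uninduced lines had log2 differences of 0.00 for LYZ and -0.42 for CD68. The 2 measured megakaryocyte genes had 1 above 0, the 2 lymphoid genes 1, and the 6 stromal and epithelial genes 4 (median 0.20, or -0.020 without K700E_induced replicate 1).

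**Figure D4:**
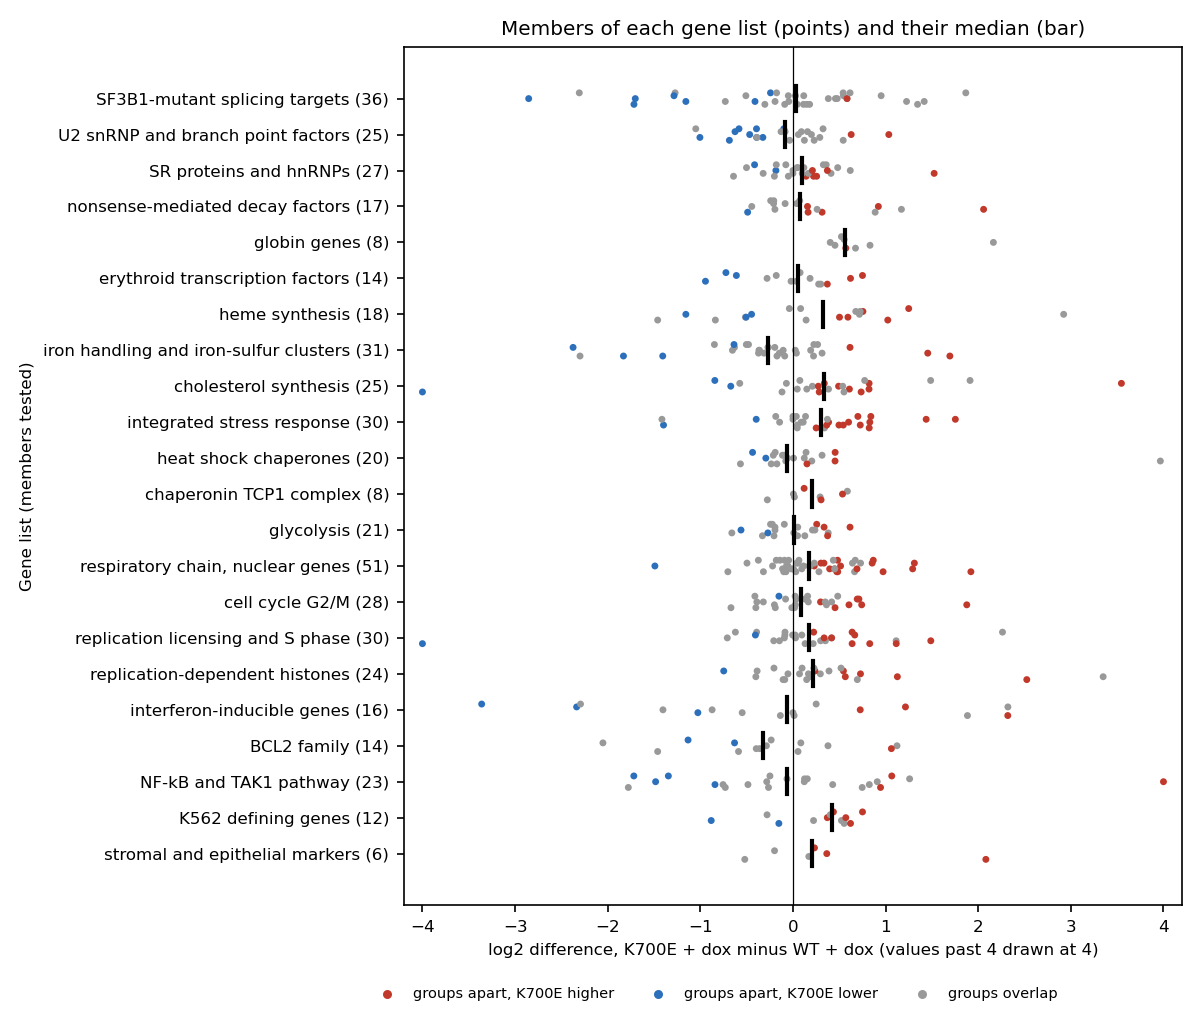
Log2 difference, K700E_induced minus WT_induced, of each tested member (points) of the lists with 6 or more, with the list's median (black bar); red and blue points are genes whose groups do not overlap. The respiratory chain and integrated stress response lists hold more red than blue points (16 against 1 and 14 against 2), with medians of 0.17 and 0.30. Of all genes, 16.3% were higher and 16.6% lower without overlap.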

How the data were processed

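The deposited values are FPKM per transcript, 1 list for each library, that the authors estimated with Cufflinks after CASAVA and TopHat (hg19, per the submitters' processing notes); no source used here gives versions or settings. Cufflinks splits reads between overlapping transcripts by a model, so a 0 can be a failed assignment. Read counts were not used here and no counting interval is given.

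A gene's FPKM was summed over its reference transcripts, over assembled spliced transcripts of 300 nt or more (given to the gene sharing most introns), and over unspliced ones that overlap a single-exon reference transcript by 90%. Genes with a mean of 1 FPKM or more were tested as log2(FPKM + 0.5). The limma 3.58.1 fit (R 4.3.3) used an intensity trend and 4 group means over the whole series, with Benjamini-Hochberg adjustment and a threshold of 0.05. Transcript shares (mean 5% to 95%) and acceptor or donor pairs (3 to 100 nt apart, mean summed FPKM of 1) were fitted as log2 ratios. The fits were tested on simulated data. Tables used Python 3.11.15 and pandas 2.3.3.

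Named were SF3B1; genes past the threshold; the 10 smallest p in each direction among genes above 0 in the 4 libraries, with a mean of 5 FPKM, a transcript of 300 nt and no overlap between groups; up to 3 members per list by smallest p without overlap; MAP3K7, TAL1, GATA1, KLF1, ALAS2, SLC25A37 and ACAT2; the 8 smallest p of transcripts, of acceptor pairs and of pairs 10 to 30 nt apart; and pairs of known targets. Members and lists were chosen with earlier results of these data known. Sequences come from GENCODE 29 transcripts (GRCh38), matched by gene, strand and intron lengths for 845 of 1278 acceptor pairs up to 30 nt apart. Some items that these rules name are not reported here.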

Additional observations from a re-analysis of the deposited data

Results flagged for a closer look

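For 2 genes the difference between the lines was not the same with and without doxycycline, by the interaction term of the limma fit. MIR4461 had an interaction of 16.96 on the log2(FPKM + 0.5) scale (adjusted p = 0.00013) and VTRNA1-3 one of -18.03 (adjusted p = 0.020). Both sizes depend on the pseudocount, since MIR4461 was at 0 in 6 libraries and VTRNA1-3 in the same number. ACAT2, at 0 in both K700E_induced libraries alone, had an interaction with an adjusted p of 0.35. No transcript share, acceptor pair or donor pair passed for the interaction.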

How the results depend on the processing

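Each alternative changed 1 choice; those for the sites 10 to 30 nt upstream were chosen after seeing the data, and leaving out 1 of 2 libraries assumes that the lone one varies like the other groups. The number of genes called, 3, was 6 with the compared groups alone, 14 with no filter on low values, 5 with reference transcripts only, 7 without the trend, 2 with a pseudocount of 1, and 3 to 11 without single libraries. No transcript share or donor pair was called under any setting run. Of acceptor pairs, 1 was called with pairs 10 to 30 nt apart only, and 1 with no filter on summed FPKM, YIPF2 in both. The excess of sites 10 to 30 nt upstream, 9 per library, was 7 to 11 without single libraries, 8.5 at 1 FPKM or more, 7.5 without sites in GENCODE 29 and 6 in a window of 15 to 25 nt. SF3B1 ranged from -0.13 to 0.31 without single libraries, and KLF1 from -0.27 to 0.42. With reference transcripts only, which drops assembled ones, the log2 difference was -1.68 for LOC728323, -1.32 for LSM14B, -0.51 for NIPA1, 0.015 for VAPA, 0.084 for CD53, 0.60 for HNRNPD, -1.98 for MAGOH, -1.21 for PCBP2, -0.77 for STARD4, -0.015 for GAPDH, 1.70 for ITGA2B and 0.42 for CD33, each of the opposite sign to that with all transcripts. List medians in that setting were 0.31 for the splicing targets, 0.16 for U2 factors, 0 for SR proteins and hnRNPs, -0.19 for decay factors and 0.14 for NF-kB. With a filter of 5 FPKM they were 0.50 for heme, -0.24 for the BCL2 family and 0.12 for NF-kB, and with the compared groups alone -0.34 for interferon genes; the cause was not tested. Without single libraries the medians ran from 0.037 to 0.13 for SR proteins and hnRNPs, -0.064 to 0.17 for erythroid factors, 0.029 to 0.32 for heme, -0.27 to 0.023 for iron, 0.14 to 0.40 for the integrated stress response, -0.083 to 0.071 for heat shock, -0.12 to 0.22 for glycolysis, -0.16 to 0.14 for interferon, -0.33 to -0.16 for BCL2, 0.15 to 1.05 for globins, 0.11 to 0.67 for cholesterol synthesis, 0.054 to 0.45 for histones, -0.020 to 0.33 for stromal genes, -0.18 to 0.21 for NF-kB and -1.75 to -1.23 for myeloid genes.

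Over 11364 genes, deviations of same-numbered libraries correlated at -0.019 between the induced groups. Within a line, with against without doxycycline, they correlated at 0.0060 for K700E and 0.082 for wild type. Single genes, picked after seeing their values, still followed the replicate number within a line. HBZ was at 1389 and 2341 FPKM in K700E_induced and 1447 and 2417 in K700E_uninduced. It was at 2146 and 867 in WT_induced and 2430 and 906 in WT_uninduced. Whether same-numbered libraries are paired is not given, and the main fits used no such pairing. With the replicate block 2 genes were called, ACAT2 being lost, and 0 transcript shares, acceptor pairs and donor pairs.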
